A study of Homo sapiens with 24 samples.

Results

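The genes described here encode the chains of collagens, laminins and integrins, the fibres, basement membrane proteins and cell surface receptors by which cells hold on to their surroundings. They were chosen by name: every protein-coding gene with a COL, LAM or ITG symbol of the usual pattern, which gave 82 of the 63299 genes in the deposited table, namely 44 collagen chains, 12 laminin chains, 17 integrin alpha subunits and 9 genes of the integrin beta pattern (1 of them, ITGBL1, is a beta-like gene rather than a receptor subunit). The libraries came from A2780, an ovarian cancer cell line that is sensitive to platinum, and from A2780cis, its isogenic platinum-resistant counterpart. Cells of each line were left untreated or were exposed to 1 µM 5-FdU-Ecyd, a duplex drug that couples fluorodeoxyuridine, an inhibitor of thymidylate synthase, to ethynylcytidine, an inhibitor of RNA synthesis. Exposure lasted 6 h or 12 h, each time with its own untreated control, and each of the 8 groups held 3 libraries. A2780cis was kept resistant with 1 µM cisplatin in some passages and was seeded at more cells than A2780, so that line, cisplatin history and seeding density cannot be told apart. The study calls the triplicates biological replicates without saying how they were kept apart, and the p-values measure the spread between these libraries.

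Collagens are built of 3 alpha chains, which may be copies of 1 gene product or come from different genes, so that a trimer such as type I or type VI needs several genes at once. Fibrillar collagens (types I, II, III, V and XI among them) form the fibres of connective tissue, type IV forms the network of basement membranes, and fibril-associated collagens such as types XII and XIV decorate the fibres. Laminins are trimers of an alpha, a beta and a gamma chain that line basement membranes. Integrins pair 1 alpha with 1 beta subunit, and the pair decides what is bound: alpha1 and alpha2 with beta1 bind collagen, alpha3, alpha6 and alpha7 bind laminin, and alpha5 and alphaV bind fibronectin or vitronectin. Matrix and integrins matter in ovarian cancer because the tumour spreads over the peritoneum by attaching to it, and collagen VI and COL11A1 have both been studied in cisplatin resistance.

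Between 11077368 and 21901406 reads per library were assigned to genes, and the untreated 12 h libraries (at least 15253875 reads) were all deeper than the untreated 6 h libraries (at most 14372622 reads). Levels are given as CPM, the reads of a gene scaled to a fixed normalized library size, and levels of different genes are compared only per kilobase of exon. Endothelial and leukocyte markers each summed to at most 0.284 CPM in every library. Several markers of ovarian carcinoma and epithelium were also near 0 in both lines: KRT7 had no count in any library, and PAX8, WT1, MUC16 and CDH1 did not exceed 0.14 CPM, while vimentin lay between 788 and 2769 CPM. The other epithelial markers were low in A2780 but not all near 0 in A2780cis, where KRT18 had a mean of 24.8 CPM untreated (against 1.46 in A2780) and KRT8 4.91 CPM (against 0.948). EPCAM went the other way, with a mean of 0.81 CPM in untreated A2780 and 0.257 in untreated A2780cis. The untreated means of CLDN3, CLDN4 and KRT19 were at most 0.319 CPM in either line.

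Of the 82 members, 51 had enough reads to be tested: 25 collagens, 7 laminins, 14 alpha subunits and 5 beta subunits. The other 31 reached at most 26 counts in any library, and LAMB4 had no count at all. Among the untested genes were COL4A1 and COL4A2, the chains of the common basement membrane collagen (at most 7 and 26 counts in a library), COL4A3 and COL4A4, the laminin chains LAMA3, LAMA4 and LAMB3, and the integrin subunits ITGA11, ITGB2, ITGB6 and ITGB8. In the libraries of both lines 33 members passed the filter on low counts, 13 passed through A2780 alone, 4 through A2780cis alone and 1 through a mixture of groups. A gene that passed through 1 line alone was selected for being higher in that line, in at least some of its groups. Its counts, fold and adjusted p in the comparison of untreated lines are given below as a description, not as evidence from a test. Those through A2780 alone were COL1A2, COL2A1, COL4A6, COL6A3, COL6A6, COL9A1, COL9A2, ITGA1, ITGA4, ITGA8, ITGAM, LAMA1 and LAMA2. Of these, ITGAM passed through treated libraries of A2780 and had 2 counts in untreated A2780 and 3 in untreated A2780cis. Those through A2780cis alone were COL14A1, COL16A1, ITGB3 and ITGB4.

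Promoter windows (250 bases before to 50 bases after the transcription start, RefSeq, GRCh38.p14) could be matched for 58 of the 82 members. A set of 6 is shown because these genes carry the contrast between the lines: COL6A3, ITGA1 and COL4A6 were near 0 in A2780cis, COL12A1 and COL11A1 were far higher in A2780cis, and COL4A5 shares its promoter region with COL4A6 but was kept in both lines. Capitals mark CG dinucleotides, the bases that can be methylated. The windows lie at chr2:237414115-237414414 on the minus strand, chr5:52787666-52787965 on the plus strand, chrX:108439409-108439708 on the minus strand, chrX:108439588-108439887 on the plus strand, chr6:75206004-75206303 on the minus strand and chr1:103108473-103108772 on the minus strand, in this order.
COL6A3: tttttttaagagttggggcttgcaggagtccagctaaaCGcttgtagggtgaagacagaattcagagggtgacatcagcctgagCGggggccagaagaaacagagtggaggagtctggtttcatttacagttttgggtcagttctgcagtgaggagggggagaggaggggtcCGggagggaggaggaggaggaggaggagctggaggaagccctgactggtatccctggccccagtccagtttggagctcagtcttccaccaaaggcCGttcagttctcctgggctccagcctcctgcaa
ITGA1: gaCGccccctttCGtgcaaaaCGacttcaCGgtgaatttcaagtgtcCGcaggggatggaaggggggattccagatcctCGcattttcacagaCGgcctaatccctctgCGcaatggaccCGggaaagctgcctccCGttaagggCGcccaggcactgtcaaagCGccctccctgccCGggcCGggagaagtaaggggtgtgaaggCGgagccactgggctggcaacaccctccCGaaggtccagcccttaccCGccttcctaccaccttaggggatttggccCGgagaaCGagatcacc
COL4A6: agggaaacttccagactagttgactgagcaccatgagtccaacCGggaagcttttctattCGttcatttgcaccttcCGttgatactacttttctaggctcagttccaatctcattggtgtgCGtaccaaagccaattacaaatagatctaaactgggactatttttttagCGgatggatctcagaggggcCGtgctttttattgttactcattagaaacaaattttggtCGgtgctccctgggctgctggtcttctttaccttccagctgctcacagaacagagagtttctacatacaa
COL4A5: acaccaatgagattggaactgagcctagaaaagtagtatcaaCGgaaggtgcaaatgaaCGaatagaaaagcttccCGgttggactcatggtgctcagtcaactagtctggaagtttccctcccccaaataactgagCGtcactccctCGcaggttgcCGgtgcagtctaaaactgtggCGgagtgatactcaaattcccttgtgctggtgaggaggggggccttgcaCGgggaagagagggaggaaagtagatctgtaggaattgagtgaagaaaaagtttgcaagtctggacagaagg
COL12A1: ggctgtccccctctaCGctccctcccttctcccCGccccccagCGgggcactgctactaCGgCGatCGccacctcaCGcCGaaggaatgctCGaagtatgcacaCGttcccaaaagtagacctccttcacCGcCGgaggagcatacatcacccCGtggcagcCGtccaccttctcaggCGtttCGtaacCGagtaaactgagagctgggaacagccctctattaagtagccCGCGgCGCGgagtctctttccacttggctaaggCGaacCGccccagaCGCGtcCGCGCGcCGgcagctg
COL11A1: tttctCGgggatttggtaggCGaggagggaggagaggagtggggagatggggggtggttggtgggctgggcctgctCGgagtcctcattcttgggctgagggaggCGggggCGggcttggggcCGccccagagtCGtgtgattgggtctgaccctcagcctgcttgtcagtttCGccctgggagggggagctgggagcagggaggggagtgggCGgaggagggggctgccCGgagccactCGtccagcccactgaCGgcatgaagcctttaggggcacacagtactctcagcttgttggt

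The number of CG dinucleotides in these windows was 4 for COL6A3, 19 for ITGA1, 7 for COL4A6, 8 for COL4A5, 29 for COL12A1 and 12 for COL11A1. Across the 58 members with a window the median was 17.5, and across 15345 protein-coding genes it was 22. In this small set, genes lower in A2780cis and genes higher in it had windows with overlapping numbers of CG. COL4A5 and COL4A6 are read in opposite directions from starts 380 bases apart, and their windows share 121 bases. On both strands, TATAAA was found in 10.3% of the members' windows against 9.63% of all windows, GGGCGG in 56.9% against 59.2%, and CCAAT in 22.4% against 36.6%. These are matches of letters in a window and no measurement of binding or methylation was made.

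The first question was how the lines differed before any drug. In untreated A2780cis, COL12A1, COL11A1, COL3A1 and the laminin receptor subunit ITGA6 were far higher than in untreated A2780, and COL6A3, COL1A2, ITGA1 and LAMA1 were almost absent. In bulk libraries fewer cells that express a gene and less of its RNA per cell cannot be told apart. Over both control times 19 tested members were higher in A2780cis and 26 were lower (edgeR quasi-likelihood test, adjusted p at most 0.05). Among all 20240 genes tested, 31.1% were higher and 30.2% lower against 37.3% and 51% of the tested members, which include the 17 that passed through 1 line alone. Of the 33 members that passed in both lines, 15 were higher (45.5%) and 13 lower (39.4%), and their median absolute log2 FC (log2 of the fold change, with A2780 as the base) was 1.03, against 0.43 over all genes. Collagens were divided evenly, with 12 higher and 12 lower of 25, alpha subunits were higher in 3 and lower in 9 of 14, laminins higher in 1 and lower in 4 of 7, and beta subunits higher in 3 and lower in 1 of 5. These families include members that passed through A2780 alone, namely 7 collagens, 4 alpha subunits and 2 laminins. Another 2 collagens and 2 beta subunits passed through A2780cis alone.

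At 6 h alone 17 members were higher (25% of all genes) and 23 lower (23% of all genes), and at 12 h alone 18 were higher (25.3%) and 21 lower (27.4%). In both control times 15 members were called higher and 21 lower, against 19.5% and 20.5% of all genes (29.4% and 41.2% of the members), and no member was called in opposite directions. The libraries of the 2 times are separate, but they were filtered and fitted together. They also share the same lines, with the same difference in cisplatin history and seeding. Calls at both times are therefore no independent replication of the line difference. The members called at both times include some that passed through A2780 alone or A2780cis alone, which had to differ between the lines.

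**Figure D1:**
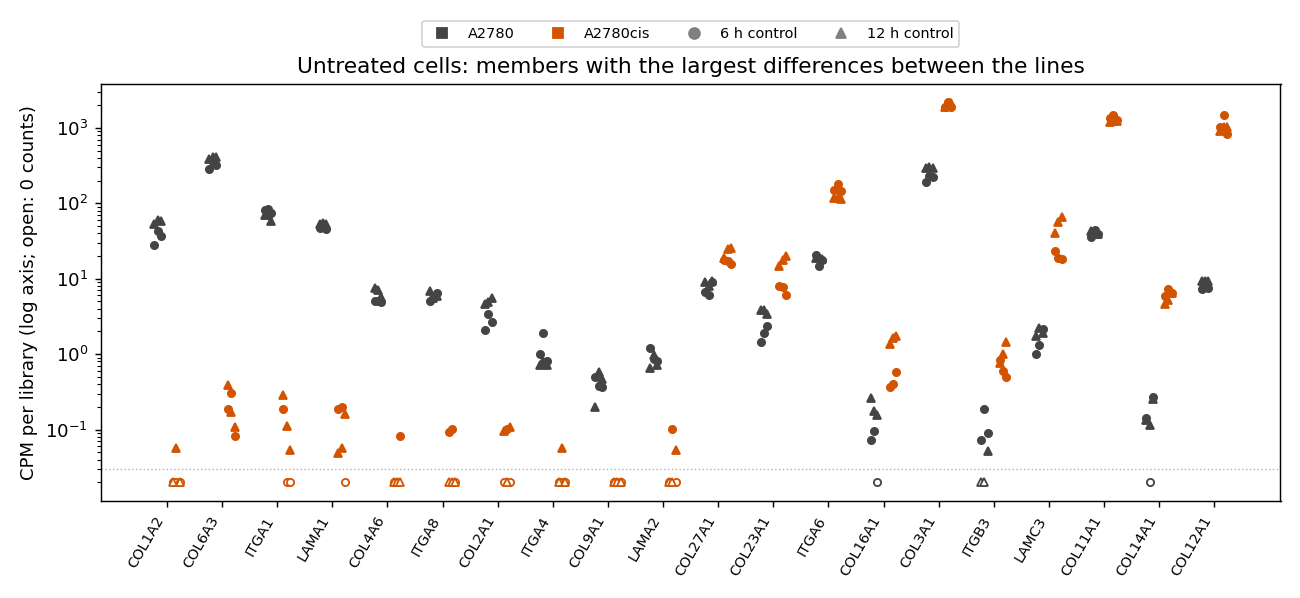
CPM on a log axis in each untreated library for the 20 members with the largest called differences between the lines, circles for 6 h controls and triangles for 12 h controls, grey for A2780 and orange for A2780cis, open symbols for libraries with 0 counts. In each gene the 6 A2780 libraries and the 6 A2780cis libraries occupy separate ranges, for COL6A3 280.4 to 415 CPM against at most 0.385.

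Fibrillar collagens made up most of the collagen message. COL3A1, which forms type III homotrimers, lay at 194 to 301 CPM (median 262) in the 6 untreated A2780 libraries and at 1874 to 2168 CPM (median 1970.1) in the 6 of A2780cis (log2 FC 2.98 ± 0.0738 (SE), adjusted p = 4.94e-24). COL11A1, a chain of type XI, went from 36 to 44.3 CPM (median 40.2) to 1199 to 1503 CPM (median 1259.9) (log2 FC 5.01 ± 0.0746 (SE), adjusted p = 1.31e-28), a rise in which the lowest A2780cis library was far above the highest of A2780. Its partner COL11A2 was low in both lines, with 0.568 to 1.91 CPM (median 1.02) and 1.11 to 2.43 CPM (median 1.73) (log2 FC 0.78 ± 0.231 (SE), adjusted p = 0.00458). COL5A2, a chain of type V, was abundant in both lines and rose modestly, from 874 to 1021 CPM (median 994) to 1271 to 1712 CPM (median 1455) (log2 FC 0.58 ± 0.0594 (SE), adjusted p = 1.11e-09). COL5A1, which supplies the other chain of the usual type V trimer, stayed near 1 CPM, with 0.455 to 0.946 CPM (median 0.871) and 0.739 to 2.08 CPM (median 1.52) (log2 FC 0.74 ± 0.232 (SE), adjusted p = 0.00683). Per kilobase of exon, COL5A2 reached 134 CPM in A2780 and 201 in A2780cis, against 0.0737 and 0.131 for COL5A1, so the chains of 1 trimer were far from balanced in either line.

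The type I chains went the other way. COL1A2 was at 28 to 60.7 CPM (median 48.3) in A2780 and had 1 count in the 6 untreated A2780cis libraries together, against 4223 in A2780 (ratio of the counts per depth 4356, 95% exact interval 781 to 172080.0, adjusted p = 1.23e-22). COL1A1 fell from 3.52 to 9.3 CPM (median 6.43) to 0.1 to 1.84 CPM (median 0.885) (log2 FC -3.05 ± 0.201 (SE), adjusted p = 8.04e-14). COL2A1, the cartilage collagen, was low in A2780 (2.08 to 5.55 CPM (median 4.01)) and had 5 counts in all of untreated A2780cis (log2 FC -6.07 ± 0.423 (SE), adjusted p = 3.43e-13). COL27A1, another fibrillar chain, was higher in A2780cis, at 15.9 to 25.7 CPM (median 18.3) against 6.15 to 9.2 CPM (median 8.45) (log2 FC 1.31 ± 0.12 (SE), adjusted p = 1.17e-10). Neither line therefore held both type I chains at a high level, and A2780cis held a fibrillar set led by COL3A1, COL5A2 and COL11A1.

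In basement membrane collagen IV, both measured chains were lower in A2780cis, but to different degrees. COL4A5 went from 33.3 to 37.5 CPM (median 35.6) to 10.3 to 13.1 CPM (median 12.5) (log2 FC -1.55 ± 0.0806 (SE), adjusted p = 2.81e-16), and COL4A6, its neighbour on the X chromosome, from 4.91 to 7.59 CPM (median 5.37) to 1 count in 6 libraries (ratio of the counts per depth 543, 95% exact interval 96.9 to 21469, adjusted p = 1.89e-18). COL4A6 was thus almost absent from A2780cis while every library kept COL4A5, and the promoter windows of the pair, printed above, overlap. Type VI collagen is built of several chains, COL6A1, COL6A2 and COL6A3 among them. COL6A3 dropped from 280.4 to 415 CPM (median 369) to 0.0818 to 0.385 CPM (median 0.177) (log2 FC -10.73 ± 0.153 (SE), adjusted p = 1.31e-28), whereas COL6A1 was slightly higher in A2780cis (4.45 to 15.6 CPM (median 10.8) against 8.75 to 30.4 CPM (median 14.9), log2 FC 0.67 ± 0.172 (SE), adjusted p = 0.00161). For COL6A2 no difference was detected, with 2.51 to 10.9 CPM (median 7.53) and 2.54 to 15.8 CPM (median 7.04) (log2 FC -0.03 ± 0.213 (SE), adjusted p = 0.928).

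Among the fibril-associated collagens, COL12A1 rose from 7.39 to 9.32 CPM (median 9.21) to 816 to 1475 CPM (median 1021) (log2 FC 6.92 ± 0.142 (SE), adjusted p = 2.49e-25), the largest fitted rise of the tested members. COL14A1, its closest relative, rose from 0 to 0.273 CPM (median 0.138) to 4.58 to 7.22 CPM (median 6.15) (log2 FC 5.18 ± 0.256 (SE), adjusted p = 8.66e-17) and COL16A1 from 0 to 0.264 CPM (median 0.124) to 0.37 to 1.73 CPM (median 0.96) (log2 FC 2.90 ± 0.406 (SE), adjusted p = 4.03e-07). COL9A1 and COL9A2, chains of the cartilage collagen IX, were lower. COL9A1 had 37 counts in A2780 and 0 in A2780cis (at least 12.7-fold lower against a floor of 3 counts over the group, adjusted p = 6.34e-06), and COL9A2 68 and 12 (log2 FC -2.96 ± 0.564 (SE), adjusted p = 4.33e-05). COL23A1, a transmembrane collagen, was higher in A2780cis (1.44 to 3.88 CPM (median 2.88) against 6.05 to 20 CPM (median 11.4), log2 FC 2.10 ± 0.138 (SE), adjusted p = 7.42e-14), as was COL18A1, the source of endostatin (3.59 to 10.9 CPM (median 7.55) against 6.12 to 31.4 CPM (median 12.9), log2 FC 1.03 ± 0.194 (SE), adjusted p = 6.11e-05). The exons of COL18A1 lie opposite those of SLC19A1 over 18.5% of their bases, and the strand setting of the counting is not given in the sources used here, so that reads of the pair may not be separable. The same holds for 11.1% of the exon bases of LAMA1 and 8.06% of those of ITGA1.

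Of the 7 tested laminin chains 4 were lower, but LAMA1 and LAMA2 passed the filter through A2780 alone. Of the 5 that passed in both lines, LAMC1 and LAMB1 were lower, LAMC3 was higher, and LAMA5 and LAMB2 were not called. LAMA1 went from 46.2 to 55.2 CPM (median 50.8) to 0 to 0.201 CPM (median 0.109) (log2 FC -8.82 ± 0.185 (SE), adjusted p = 1.2e-25) and LAMA2, the muscle chain, from 76 counts to 2 (ratio of the counts per depth 39.2, 95% exact interval 10.5 to 329.5, adjusted p = 1.51e-08). LAMC1, the gamma chain of most laminins, was the leading laminin gene of both lines and fell from 401 to 449 CPM (median 423) to 162 to 239 CPM (median 177) (log2 FC -1.21 ± 0.0712 (SE), adjusted p = 6.12e-15). LAMB1 was low and fell from 1.64 to 2.74 CPM (median 2.47) to 0.832 to 1.5 CPM (median 1.4) (log2 FC -0.84 ± 0.161 (SE), adjusted p = 5.13e-05). For LAMA5 and LAMB2 no difference was detected: LAMA5 lay at 7.97 to 37.8 CPM (median 26.3) and 6.82 to 69.6 CPM (median 24) (log2 FC 0.13 ± 0.298 (SE), adjusted p = 0.731), and LAMB2 at 55.9 to 121 CPM (median 101) and 72.5 to 178 CPM (median 97.6) (log2 FC 0.21 ± 0.124 (SE), adjusted p = 0.158). LAMC3, a rarer gamma chain, was the exception that rose, from 1.01 to 2.2 CPM (median 1.81) to 18.3 to 65 CPM (median 32) (log2 FC 4.28 ± 0.207 (SE), adjusted p = 3.78e-15). Per kilobase, the laminin chains best represented in A2780cis were LAMC1 (21.9 CPM), LAMB2 (16.3), LAMC3 (4.15) and LAMA5 (2.17), and in A2780 LAMC1 (50.4), LAMB2 (13.8), LAMA1 (3.18) and LAMA5 (1.7).

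Of the collagen-binding integrin subunits, ITGA1 was at 58.2 to 84.7 CPM (median 72.3) in A2780 and at 0 to 0.289 CPM (median 0.0831) in A2780cis (log2 FC -9.42 ± 0.244 (SE), adjusted p = 7.78e-23). ITGA2 was low in A2780 and lower in A2780cis (1.55 to 2.65 CPM (median 2.18) against 0.112 to 0.37 CPM (median 0.243), log2 FC -3.18 ± 0.268 (SE), adjusted p = 1.98e-11). ITGA10, a further subunit of this kind, lay at 0.378 to 1.22 CPM (median 0.962) and 0.736 to 1.84 CPM (median 1.38) and was not called (log2 FC 0.50 ± 0.235 (SE), adjusted p = 0.0682). The laminin-binding subunits moved otherwise. ITGA6 went from 14.7 to 20.8 CPM (median 18.5) to 115 to 179 CPM (median 132) (log2 FC 2.90 ± 0.083 (SE), adjusted p = 1.64e-22) and ITGA3 from 1.79 to 3.09 CPM (median 2.45) to 3.76 to 7.56 CPM (median 5.99) (log2 FC 1.16 ± 0.154 (SE), adjusted p = 1.68e-07), while ITGA7 fell from 2.66 to 4.98 CPM (median 3.89) to 1.3 to 2.27 CPM (median 1.82) (log2 FC -1.11 ± 0.146 (SE), adjusted p = 1.43e-07). A2780cis was thus low in the collagen-binding ITGA1 and ITGA2 and high in the laminin-binding ITGA6.

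The fibronectin receptor subunit ITGA5 fell from 51.3 to 109 CPM (median 80.5) to 22.7 to 40.2 CPM (median 28.8) (log2 FC -1.38 ± 0.0919 (SE), adjusted p = 1.07e-13). ITGAV, which pairs with several beta subunits, was the alpha subunit with the highest level per kilobase in both lines and fell slightly, from 589.5 to 1104 CPM (median 820.0) to 521 to 912 CPM (median 649) (log2 FC -0.30 ± 0.107 (SE), adjusted p = 0.0168), and this call was lost when the third A2780cis 6 h control was left out (adjusted p = 0.053). ITGA8, another subunit of this group, went from 5.1 to 6.86 CPM (median 5.76) to 2 counts in 6 libraries (ratio of the counts per depth 266, 95% exact interval 73.2 to 2199, adjusted p = 4.88e-17). ITGA4, which binds fibronectin and VCAM, had 82 counts in A2780 and 1 in A2780cis (ratio of the counts per depth 84.6, 95% exact interval 14.8 to 3381, adjusted p = 1.9e-08), and 26.4% of its exon bases lie opposite those of CERKL. The calls of COL20A1 and ITGAD as lower rested on 12 against 3 and 19 against 6 counts in the 6 libraries of A2780 and of A2780cis.

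ITGB1, the partner of most alpha subunits, was the leading beta subunit and fell from 838 to 1198 CPM (median 1022) to 461 to 692 CPM (median 618) (log2 FC -0.79 ± 0.073 (SE), adjusted p = 1.61e-10). ITGB5, a partner of alphaV, rose from 12.9 to 20.1 CPM (median 18.3) to 28.7 to 39.9 CPM (median 31.4) (log2 FC 0.92 ± 0.0787 (SE), adjusted p = 2.99e-11). ITGB3, also an alphaV partner, had 5 counts in A2780 and 82 in A2780cis (log2 FC 3.86 ± 0.481 (SE), adjusted p = 5.27e-08), and 33.2% of its exon bases are shared with another annotated gene on the same strand. ITGB4, the partner of alpha6 in epithelia, did not exceed 1.03 CPM in any untreated library (log2 FC 1.30 ± 0.428 (SE), adjusted p = 0.00979). Per kilobase the levels of ITGA6 and ITGB4 in A2780cis were 20.6 and 0.0901 CPM. No difference was detected for ITGB7, the lymphocyte beta subunit (log2 FC 0.30 ± 0.241 (SE), adjusted p = 0.299).

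**Figure D2:**
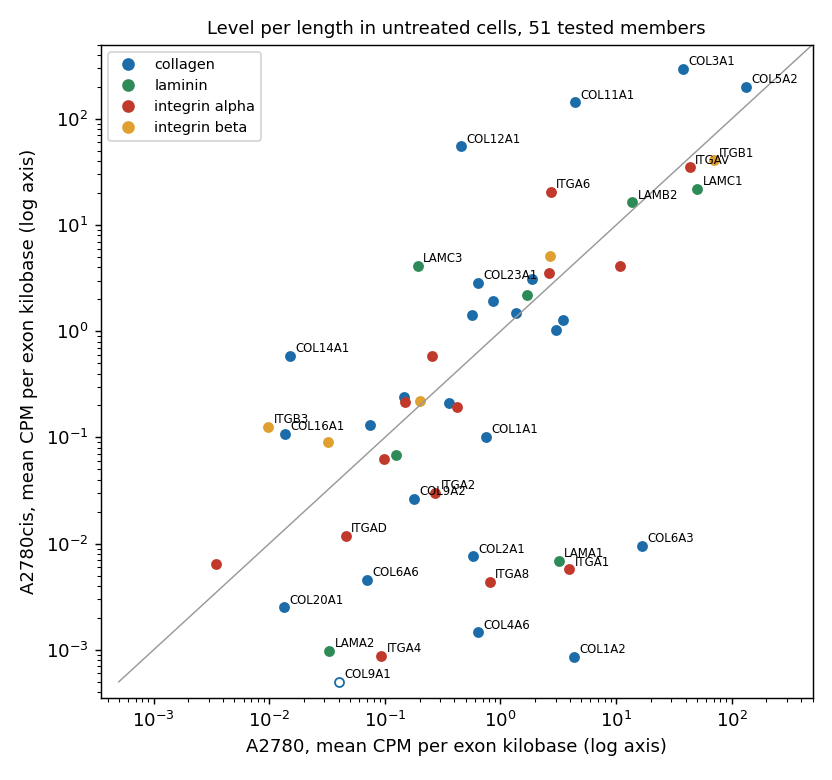
Mean CPM per kilobase of exon in untreated A2780 (horizontal, log axis) and untreated A2780cis (vertical, log axis) for the 51 tested members, 6 libraries per line, coloured by family, with the line of equal levels and an open symbol for COL9A1, drawn at the lower edge because it had 0 counts in A2780cis. COL5A2, COL3A1, ITGB1, ITGAV, LAMC1 and LAMB2 lie high in both lines, and COL6A3, COL1A2, ITGA1 and LAMA1 lie far below the line.

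Summed over the 44 collagens, the level rose from 1650.1 ± 133 CPM in the 6 h control of A2780 to 6172 ± 678 in that of A2780cis (SD, n = 3), and at 12 h from 1949 ± 27.1 to 5666 ± 262. The laminin sum was lower in A2780cis at both times, 305 ± 34.8 against 549 ± 28.4 CPM at 6 h and 428 ± 67.7 against 651 ± 21.7 at 12 h. Such sums are dominated by a few long or abundant genes: COL3A1 alone gave 13.1% of the collagen sum in the 6 h control of A2780 and 32.0% in that of A2780cis.

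The second question was what 5-FdU-Ecyd did to these genes. After 12 h, ITGA3 rose strongly in both lines, the abundant fibrillar and fibril-associated collagens COL5A2, COL3A1, COL11A1 and COL12A1 fell in both, and the collagens COL7A1 and COL1A1 rose in both. In A2780, 18 tested members rose (28.7% of all genes rose) and 12 fell (26.2% of all genes), and without the second treated library 10 rose. In A2780cis, 18 rose (31%) and 11 fell (28.9%). The counts of rises include members that passed the filter through treated libraries alone, such as COL20A1 and, in A2780, ITGAM. COL20A1 is also counted among the 33 members that passed in both lines and among the shared rises. The shares of all tested members were 35.3% higher and 23.5% lower in A2780 and 35.3% and 21.6% in A2780cis. They lay near those of all genes and changed with the method. By the DESeq2 test 15 members rose and 11 fell in A2780, and 13 rose and 11 fell in A2780cis. On the compared libraries alone 20 rose and 15 fell in A2780, and 13 rose and 11 fell in A2780cis. The shares of all tested members count members near 0 in A2780cis, which could hardly be called lower there. Of the 33 members that passed in both lines, 42.4% rose and 21.2% fell in A2780, and 42.4% rose and 30.3% fell in A2780cis. The share that fell in A2780cis was thus not below that of all genes. Both lines together shared 11 members called higher (COL16A1, COL1A1, COL20A1, COL4A5, COL6A2, COL7A1, ITGA3, ITGA9, ITGAE, ITGB4 and LAMB2) and 6 called lower (COL11A1, COL12A1, COL23A1, COL26A1, COL3A1 and COL5A2), and COL5A1 was called in opposite directions. Over all genes, 19.2% were called higher and 18.4% lower in both lines and 1.7% in opposite directions. Of the tested members 21.6% were higher and 11.8% lower in both, counted over a set that includes those that passed through 1 line alone. Of the shared rises, those of COL6A2, LAMB2, COL16A1 and ITGB4 were lost in some fits that left out 1 library, as was that of COL4A5 in A2780cis.

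The scaling bears on this balance. With library size alone in place of TMM factors (which scale libraries on the genes that change least), the median log2 FC of all genes at 12 h was 0.24 rather than 0.02 in A2780, and 0.15 rather than 0.04 in A2780cis. The split of all called genes in A2780 then moved from 5800 higher and 5301 lower to 8079 and 3348, and the members from 18 and 12 to 25 and 10. The values here are therefore changes relative to the bulk of the genes.

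Among the integrins, ITGA3 went from 2.11, 3.07 and 2.72 CPM in the untreated to 16.4, 25.1 and 25.2 CPM in the treated A2780 libraries (log2 FC 3.07 ± 0.186 (SE), adjusted p = 9.25e-14). In A2780cis it went from 7.08, 7.24 and 7.56 to 19.6, 25 and 23.7 CPM (log2 FC 1.64 ± 0.164 (SE), adjusted p = 1.53e-09). The treated libraries of both lines thus reached a similar range from different starting levels. ITGA6, the other laminin receptor subunit, fell in A2780cis from 116, 119 and 115 to 52.8, 45.2 and 40.5 CPM (log2 FC -1.34 ± 0.108 (SE), adjusted p = 2.54e-11), and in A2780 it stood at 18.7, 18.8 and 18.2 CPM untreated and 19, 16.3 and 15.4 CPM treated (log2 FC -0.14 ± 0.118 (SE), adjusted p = 0.307). ITGB1 rose in A2780cis from 562, 496 and 461 to 773, 657 and 629 CPM (log2 FC 0.44 ± 0.103 (SE), adjusted p = 0.000586) and was not called in A2780 (log2 FC -0.22 ± 0.103 (SE), adjusted p = 0.0753).

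ITGA5 rose in A2780cis, from 28.8, 37.3 and 40.2 to 52.1, 58 and 51.6 CPM (log2 FC 0.61 ± 0.126 (SE), adjusted p = 0.000159), and in A2780 its log2 FC was 0.02 (adjusted p = 0.904). ITGA2 rose in A2780cis from 0.241, 0.112 and 0.162 to 1.27, 2.07 and 1.31 CPM (log2 FC 3.10 ± 0.386 (SE), adjusted p = 8.81e-08), which brought this collagen receptor subunit to the order of its level in A2780, where it stood at 1.91, 2.49 and 1.9 CPM untreated and 1.68, 1.22 and 1.46 CPM treated (log2 FC -0.55 ± 0.25 (SE), adjusted p = 0.0652). ITGA1 fell in A2780 from 70.5, 70.1 and 58.2 to 31.2, 32.3 and 29.4 CPM (log2 FC -1.10 ± 0.167 (SE), adjusted p = 3.5e-06), with no overlap of the groups. ITGA8 also fell there, from 6.86, 5.62 and 5.91 to 2.45, 3.13 and 2.77 CPM (log2 FC -1.12 ± 0.189 (SE), adjusted p = 2.04e-05).

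Smaller subunit calls rested on few reads or were close to the threshold. ITGB7, 42.3% of whose exon bases lie opposite ZNF740, rose in A2780cis from 1.01, 0.786 and 1.13 to 2.41, 3.79 and 3.18 CPM (log2 FC 1.67 ± 0.241 (SE), adjusted p = 1.01e-06), and ITGB3 fell there from 0.771, 1.01 and 1.46 to 0.318, 0.517 and 0.249 CPM (log2 FC -1.53 ± 0.382 (SE), adjusted p = 0.00107). ITGA7 rose in A2780cis from 1.97, 1.8 and 2.27 to 3.37, 4.13 and 3.68 CPM (log2 FC 0.89 ± 0.188 (SE), adjusted p = 0.000188). ITGAM, a leukocyte subunit, went from 2 to 82 counts in A2780 (ratio of the counts per depth 38.4, 95% exact interval 10.3 to 323, adjusted p = 1.13e-07). It passed the filter through these treated libraries alone, so that its rise is a description and not evidence from a test. ITGB4 was higher in both lines (A2780 log2 FC 1.05 ± 0.437 (SE), adjusted p = 0.0436, A2780cis log2 FC 0.89 ± 0.308 (SE), adjusted p = 0.0147), but the call was lost in 4 of the 6 fits that left out 1 library in A2780, and in A2780cis without the second 12 h control. The calls of ITGA4 and ITGAV as lower in A2780 (log2 FC -1.11 ± 0.436 (SE), adjusted p = 0.0364 and log2 FC -0.38 ± 0.151 (SE), adjusted p = 0.0342) were lost in 5 and 4 of 6 such fits.

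**Figure D3:**
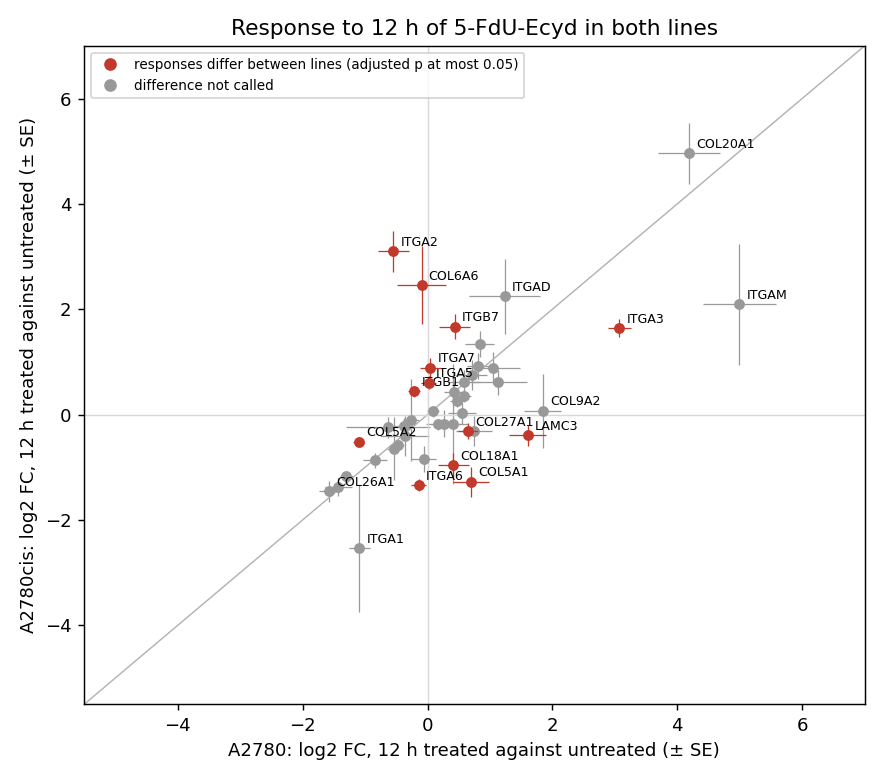
Log2 FC after 12 h of treatment in A2780 (horizontal) and A2780cis (vertical) with standard errors for the tested members that had over 3 counts in at least 1 group of each line, with the line of equal response. Red points are the 13 members whose responses differed between the lines, among them ITGA3 (3.07 and 1.64) and ITGA2 (-0.55 and 3.10).

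The fibrillar collagens that A2780cis expressed at a high level fell together. COL11A1 went from 1199, 1241 and 1216 to 575, 552 and 496 CPM in A2780cis (log2 FC -1.17 ± 0.089 (SE), adjusted p = 7.47e-12) and from 42.2, 40.7 and 38.9 to 16, 17.2 and 16.3 CPM in A2780 (log2 FC -1.30 ± 0.0975 (SE), adjusted p = 8.17e-12), so that a similar ratio held at levels that differ greatly. COL5A2 fell from 1005, 1014 and 1021 to 467, 463 and 483 CPM in A2780 (log2 FC -1.11 ± 0.0849 (SE), adjusted p = 1.29e-11) and from 1271, 1326 and 1306 to 955, 928 and 843 CPM in A2780cis (log2 FC -0.52 ± 0.084 (SE), adjusted p = 5.99e-06). COL3A1 fell from 291, 301 and 291 to 205, 214 and 218 CPM in A2780 (log2 FC -0.47 ± 0.0975 (SE), adjusted p = 0.000163) and from 1878, 2061 and 2129 to 1381, 1345 and 1321 CPM in A2780cis (log2 FC -0.58 ± 0.0968 (SE), adjusted p = 8.03e-06). For these genes the treated and untreated libraries did not overlap in either line.

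COL12A1 fell likewise, from 904, 1028 and 1026 to 592, 604 and 421 CPM in A2780cis (log2 FC -0.87 ± 0.149 (SE), adjusted p = 1.45e-05) and from 9.31, 9.32 and 9.25 to 4.55, 4.84 and 6.02 CPM in A2780 (log2 FC -0.84 ± 0.197 (SE), adjusted p = 0.000697). COL26A1 and the transmembrane COL23A1 were also lower than their 12 h controls in both lines: COL26A1 by a log2 FC of -1.58 and -1.46, and COL23A1 by -1.43 and -1.38 in A2780 and A2780cis (adjusted p at most 2.7e-06). These controls lay above those of 6 h. In A2780cis the control means of COL23A1 were 7.27 CPM at 6 h and 17.6 at 12 h, and the treated means 6.09 and 6.76. In A2780 they were 1.9 and 3.7 CPM untreated and 1.89 and 1.34 treated. For COL26A1 they were 2.67 and 5.27 CPM untreated and 1.46 and 1.9 treated in A2780cis, and 7.81 and 13.5 untreated and 7.36 and 4.53 treated in A2780. COL6A3 fell in A2780 from 385, 415 and 413 to 256, 296 and 285 CPM (log2 FC -0.54 ± 0.109 (SE), adjusted p = 0.000139), and in A2780cis the 12 h groups held 13 and 7 counts (log2 FC -0.65 ± 0.603 (SE), adjusted p = 0.381), so that no rise was detected. COL1A2 stood at 1 and 2 counts in the untreated and treated A2780cis groups of 12 h.

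Other collagens rose in both lines. COL7A1, which forms the anchoring fibrils of skin, went from 5.35, 5.1 and 5.04 to 7.43, 10.5 and 9.57 CPM in A2780 (log2 FC 0.84 ± 0.23 (SE), adjusted p = 0.00304) and from 2.5, 2.98 and 3.83 to 4.76, 10.9 and 7.79 CPM in A2780cis (log2 FC 1.34 ± 0.244 (SE), adjusted p = 3.21e-05). COL1A1 rose from 6.86, 8.98 and 9.3 to 12.9, 16 and 15.3 CPM in A2780 (log2 FC 0.81 ± 0.181 (SE), adjusted p = 0.000395) and from 1.3, 1.12 and 1.84 to 2.29, 2.99 and 2.8 CPM in A2780cis (log2 FC 0.92 ± 0.252 (SE), adjusted p = 0.0025). COL4A5 rose in A2780 from 36.7 ± 0.924 to 55.1 ± 0.683 CPM (log2 FC 0.59 ± 0.104 (SE), adjusted p = 2.54e-05) and in A2780cis from 12.2 ± 0.679 to 15.7 ± 2.33 CPM (SD, n = 3, log2 FC 0.36 ± 0.114 (SE), adjusted p = 0.0078), where the call was lost without the second treated library (adjusted p = 0.101). COL16A1 was called in both lines, in A2780 on 10 and 24 counts, and ITGA9 and ITGAE, alpha subunits of wound repair and of intraepithelial lymphocytes, rose by a log2 FC of 0.70 and 0.47 in A2780 and of 0.76 and 0.25 in A2780cis. COL9A2 rose in A2780 from 1.32, 0.753 and 0.976 to 3.64, 3.71 and 3.55 CPM (log2 FC 1.84 ± 0.301 (SE), adjusted p = 7.94e-06). COL20A1, a fibril-associated collagen close to 0 in untreated cells, reached 1.68, 3.08 and 1.89 CPM in treated A2780 from 6 counts in the control group (log2 FC 4.19 ± 0.496 (SE), adjusted p = 7.84e-08) and 1.65, 2.58 and 1.37 CPM in treated A2780cis from 3 counts (ratio of the counts per depth 36, 95% exact interval 11.9 to 178, adjusted p = 5.02e-08). With at most 4 counts in any untreated library, COL20A1 passed the filter through treated libraries alone. Its rise is given as a description, not as evidence from a test.

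For COL6A2, COL6A1, COL5A1 and COL16A1 the 12 h calls in A2780 were not stable when 1 library was left out. Their log2 FC was 0.59, 0.55, 0.69 and 1.13, and the call was lost in 5, 5, 5 and 4 of 6 such fits, with an adjusted p of at most 0.358. In A2780cis the call of COL6A2 (log2 FC 0.61 ± 0.24 (SE), adjusted p = 0.0322) was lost in 3 of 6. COL5A1 fell in A2780cis from 1.88, 2.08 and 1.84 to 0.635, 0.976 and 0.748 CPM (log2 FC -1.28 ± 0.283 (SE), adjusted p = 0.000318).

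Of the 7 tested laminins, 2 were higher and 1 lower in A2780 at 12 h, and 1 was higher and 1 lower in A2780cis. LAMB2 was higher in both lines, at 117, 117 and 121 CPM untreated and 121, 178 and 178 CPM treated in A2780 (log2 FC 0.43 ± 0.172 (SE), adjusted p = 0.0386) and at 117, 154 and 178 and 172, 237 and 192 CPM in A2780cis (log2 FC 0.42 ± 0.171 (SE), adjusted p = 0.0364), with overlapping libraries and calls lost in 5 and 4 of 6 fits that left out 1 library. LAMC3 rose in A2780 from 1.72, 2.2 and 1.9 to 4.34, 5.52 and 7.68 CPM (log2 FC 1.60 ± 0.299 (SE), adjusted p = 8.32e-05) and stood at 40.6, 56.1 and 65 and 33.7, 52.8 and 36.2 CPM in A2780cis (log2 FC -0.40 ± 0.205 (SE), adjusted p = 0.1). LAMB1 fell in A2780cis (log2 FC -0.85 ± 0.246 (SE), adjusted p = 0.00407), and LAMA2 in A2780, from 41 to 16 counts (log2 FC -1.43 ± 0.44 (SE), adjusted p = 0.00762). LAMC1, the most abundant laminin message, and LAMA5 and LAMA1 were not called in either line: the log2 FC of LAMC1 was 0.08 ± 0.0987 in A2780 and 0.06 ± 0.0997 (SE) in A2780cis.

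At 6 h the response was smaller. In A2780, 16 members were higher (16% of all genes) and 4 lower (13.4% of all genes), and in A2780cis 9 were higher (14.4%) and 6 lower (16.3%). The members' shares were 31.4% and 7.84% in A2780 and 17.6% and 11.8% in A2780cis. Of the 33 members that passed in both lines, 39.4% were higher and 9.09% lower in A2780, and 24.2% and 18.2% in A2780cis. ITGA3 had already risen, from 1.79, 2.18 and 3.09 to 6.99, 6.94 and 6.96 CPM in A2780 (log2 FC 1.58 ± 0.221 (SE), adjusted p = 4.34e-06) and from 4.9, 4.01 and 3.76 to 7.33, 9.35 and 10.8 CPM in A2780cis (log2 FC 1.13 ± 0.194 (SE), adjusted p = 5.85e-05). COL6A2, COL7A1 and LAMB2 were higher in both lines, with a log2 FC of 1.32, 1.06 and 0.73 in A2780 and 1.19, 1.41 and 0.86 in A2780cis (adjusted p at most 0.00626). COL11A1, COL5A2 and ITGA6 were lower in both. In A2780cis, COL12A1 fell from 1015, 1475 and 816 to 767, 657 and 674 CPM (log2 FC -0.66 ± 0.149 (SE), adjusted p = 0.00138), COL11A1 by a log2 FC of -0.59 ± 0.0881 and ITGA6 by -0.68 ± 0.106 (SE).

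In A2780 the falls at 6 h were shallow: COL5A2 log2 FC -0.35 ± 0.084 (SE), adjusted p = 0.00234, COL11A1 log2 FC -0.33 ± 0.0969 (SE), adjusted p = 0.0103, ITGA1 log2 FC -0.48 ± 0.165 (SE), adjusted p = 0.0291 and ITGA6 log2 FC -0.33 ± 0.127 (SE), adjusted p = 0.0469. The calls of ITGA1 and ITGA6 were lost in 4 and 5 of 6 fits that left out 1 library, and that of COL11A1 without the second 6 h control. The number of members higher in A2780 fell from 16 to 8 without the first 6 h control and to 10 without the first treated library. Rises of COL20A1 were again from near 0, with 6 to 26 counts in A2780 (call lost in 4 of 6 fits) and 0 to 34 in A2780cis (at least 7.88-fold higher against a floor of 3 counts over the group, adjusted p = 0.00036). As this gene passed the filter through treated libraries alone, these rises are a description, not evidence from a test. The calls of ITGAM in A2780 and of COL1A2 in A2780cis rested on 7 and 8 counts in the treated group and were lost in 4 and 5 of 6. In A2780cis the split of all genes moved with the scaling, from 2916 higher and 3305 lower to 3789 and 2378 with library size alone, and the members from 9 and 6 to 10 and 5.

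**Figure D4:**
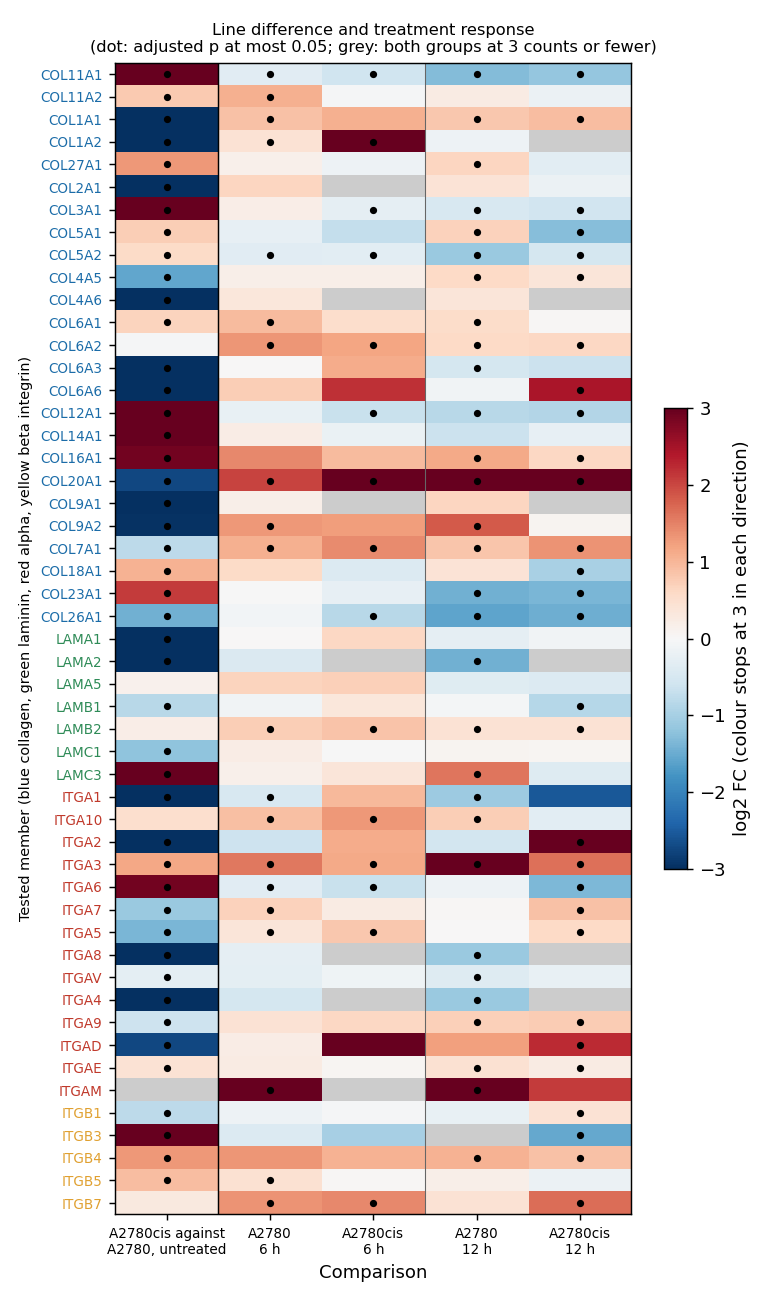
Log2 FC of the 51 tested members, ordered by role, in untreated A2780cis against A2780 (first column) and in treated against untreated cells of each line and time, with red for higher, blue for lower, a dot for an adjusted p of at most 0.05 and grey where both groups held at most 3 counts; the colour stops at 3 in each direction. COL11A1 and COL5A2 are blue with a dot in all 4 treatment columns, ITGA3 and COL7A1 red with a dot in all 4.

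The third question was whether the lines responded differently, which was tested as the treatment log2 FC of A2780cis minus that of A2780. At 12 h, 7 members had a higher response in A2780cis (9.76% of all genes) and 6 a lower one (14.1% of all genes). Higher were the integrin subunits ITGA2 (difference of log2 FC 3.64 ± 0.467, adjusted p = 2.77e-06), ITGB7 (1.23 ± 0.351), ITGA7 (0.84 ± 0.252), ITGB1 (0.65 ± 0.145) and ITGA5 (0.59 ± 0.175), and the collagens COL5A2 (0.59 ± 0.119) and COL6A6. COL6A6 rested on 3 and 16 counts in the A2780cis groups and lost its call in 5 of the 12 fits that left out 1 library, and ITGA7 lost it without the second A2780cis 12 h control (adjusted p = 0.0521).

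A lower response in A2780cis was found for LAMC3 (-2.00 ± 0.364, adjusted p = 0.000406), COL5A1 (-1.97 ± 0.405), ITGA3 (-1.43 ± 0.248), COL18A1 (-1.37 ± 0.339), ITGA6 (-1.19 ± 0.159) and COL27A1 (-0.96 ± 0.225). COL18A1 stood at 17.6, 25.7 and 31.4 CPM untreated and 9.84, 18 and 10.3 CPM treated in A2780cis, overlapping groups, and at 10.2, 10.1 and 10.9 and 9.95, 13.6 and 17.7 CPM in A2780. COL27A1 rose in A2780 from 8.98, 7.93 and 9.2 to 11.1, 14 and 15.5 CPM (log2 FC 0.65 ± 0.164 (SE), adjusted p = 0.00153) and was not called in A2780cis (log2 FC -0.32 ± 0.153 (SE), adjusted p = 0.074). With library size alone the split of all called genes moved from 1975 higher and 2844 lower to 1438 and 3893, and that of the members from 7 and 6 to 6 and 9, with the median of all genes moving from -0.04 to -0.16.

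At 6 h no member was called for the interaction by edgeR (0.682% of all genes were called higher and 2.39% lower), while 11 of 51 had an unadjusted p of at most 0.05. DESeq2 called 1 member lower, COL3A1, with 11 at an unadjusted p of at most 0.05. A fit to the compared libraries alone moved the split of all called genes from 138 higher and 484 lower to 143 and 297. Without the filter on low counts, COL18A1 was called lower. The absence of calls by edgeR does not show that the lines responded alike at 6 h.

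**Figure D5:**
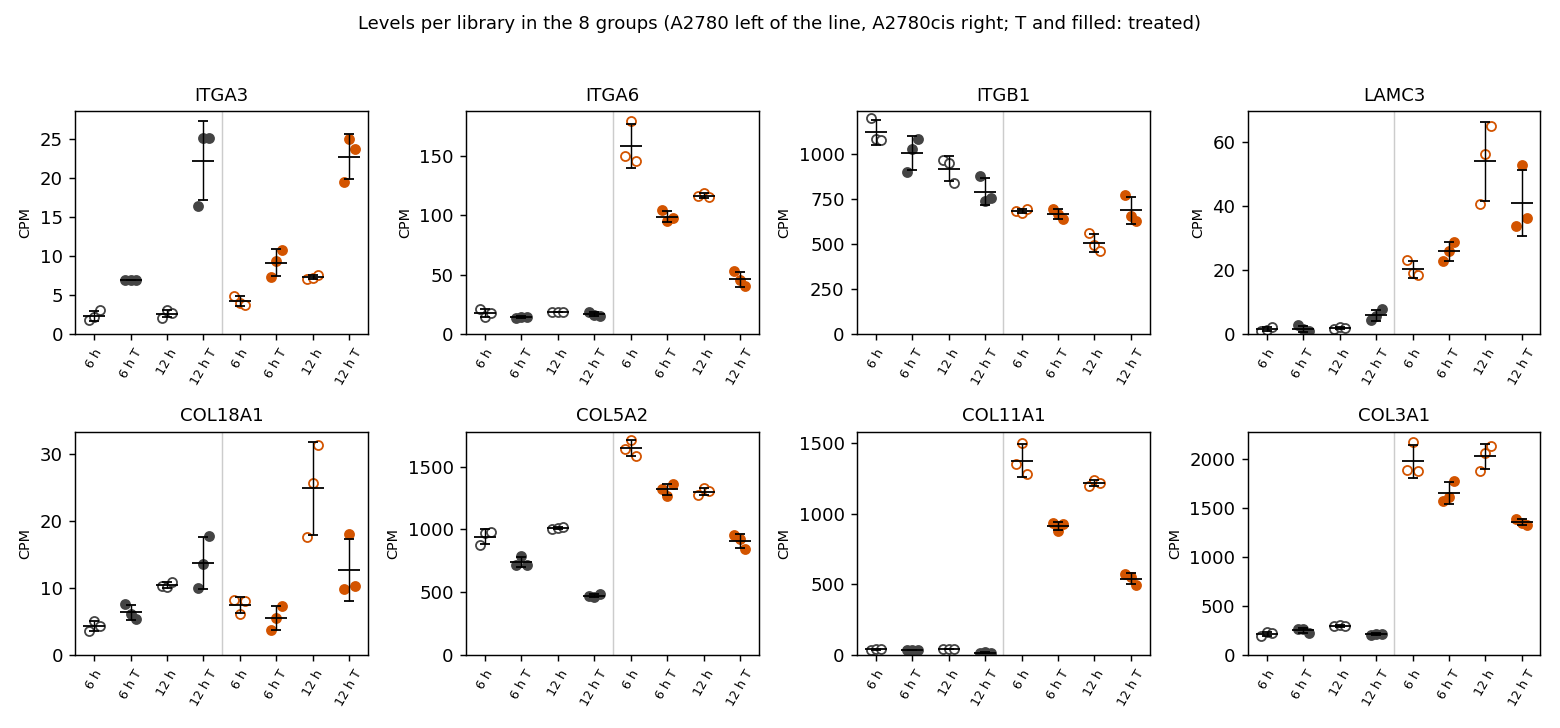
CPM per library (linear axes from 0) of 8 members in the 8 groups, A2780 in grey left of the dividing line and A2780cis in orange right of it, open circles untreated, filled circles treated, with mean ± SD of 3 libraries. ITGA3 rises with treatment in both lines, ITGA6, COL11A1, COL5A2 and COL3A1 fall in A2780cis, and LAMC3 and COL18A1 differ between the 6 h and 12 h controls of A2780cis.

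The untreated controls themselves differed between 6 h and 12 h, which bears on comparisons over time. In A2780, 18 members were higher at 12 h (16.3% of all genes) and 2 lower (10.4%), and in A2780cis 17 were higher (18.1%) and 4 lower (22%). Higher in both lines were COL18A1, COL1A1, COL23A1, COL26A1, COL6A1, COL6A2, COL7A1, ITGA5, ITGB5, LAMA5 and LAMB2, and ITGAV and ITGB1 were lower in both. The call of ITGB1 in A2780 was lost in 4 of 6 fits that left out 1 library (adjusted p at most 0.194). LAMA5, a chain of the laminins of most adult basement membranes, went from 7.97, 12.5 and 21.1 to 31.4, 37.8 and 34.9 CPM in A2780 (log2 FC 1.34 ± 0.419 (SE), adjusted p = 0.0265, a call lost in 4 of 6 fits that left out 1 library) and from 13.8, 6.82 and 12.7 to 34.2, 49.3 and 69.6 CPM in A2780cis (log2 FC 2.19 ± 0.428 (SE), adjusted p = 0.000881). COL6A2 went from 2.51, 4.54 and 5.09 to 10.9, 9.96 and 10.3 CPM in A2780 (log2 FC 1.38 ± 0.292 (SE), adjusted p = 0.0023) and from 4.07, 2.91 and 2.54 to 10, 12.1 and 15.8 CPM in A2780cis (log2 FC 2.00 ± 0.301 (SE), adjusted p = 6.36e-05). COL18A1 rose by 1.29 and 1.73 (log2 FC) in A2780 and A2780cis.

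The 6 h controls enter both this comparison and the treatment comparison at 6 h. Side by side, the log2 FC over control time and that of treatment at 6 h in A2780 were 1.11 and 0.95 for COL6A1, 1.38 and 1.32 for COL6A2, 0.84 and 1.06 for COL7A1, and 0.73 and 0.73 for LAMB2, each pair resting on the same 3 control libraries. The number of members higher at 12 h in A2780 fell from 18 to 10 without the first 6 h control and to 11 without the third 12 h control. ITGAV fell from 997 ± 98.7 to 678 ± 77 CPM in A2780 (log2 FC -0.56 ± 0.151 (SE), adjusted p = 0.00929) and from 795 ± 108 to 561 ± 39.2 CPM (SD, n = 3) in A2780cis (log2 FC -0.50 ± 0.151 (SE), adjusted p = 0.00984), calls lost in 2 and 2 of 6 fits that left out 1 library. The 6 h controls were the shallower libraries in both lines, and the part of depth in these differences was not tested. In A2780cis the split of all called genes changed from 3654 higher and 4445 lower to 4690 and 1589 with library size alone, and in A2780 from 3297 and 2107 to 3818 and 1498. The median log2 FC of all genes in A2780cis moved from -0.09 to 0.06, and the members then counted 17 higher and 1 lower in A2780cis and 19 and 1 in A2780. In A2780cis the fit to the compared libraries alone also moved the split, to 3905 higher and 2411 lower genes.

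Members of longer genomic span had lower log2 FC after treatment. Over the 51 tested members the Spearman correlation of the genomic span of the gene with its log2 FC was -0.62 at 6 h and -0.51 at 12 h in A2780, and -0.56 and -0.28 in A2780cis. Over 13881 protein-coding genes it was -0.35 and -0.23 in A2780 and -0.40 and -0.38 in A2780cis. For the difference between the untreated lines it was -0.02 over the members. These are descriptions across genes, which share libraries and are not independent replicates, and no p-value is given.

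Genes that work with the members were taken from 5 lists of genes grouped by function, with levels as mean ± SD over 6 libraries for the lines and 3 for the treatment. Of the matrix and basement membrane partners, 19 of 22 were tested, and 1 was higher and 14 were lower in untreated A2780cis: FREM2, a basement membrane protein, went from 106 ± 10.7 to 0.107 ± 0.125 CPM (log2 FC -9.89 ± 0.228, adjusted p = 4.58e-24), THBS1, an adhesive glycoprotein, from 37.6 ± 7.54 to 0.533 ± 0.217 CPM (log2 FC -6.13 ± 0.122, adjusted p = 3.53e-26) and NID2, which links laminin to collagen IV, from 24.4 ± 2.41 to 1.63 ± 0.78 CPM (log2 FC -3.96 ± 0.132, adjusted p = 6.6e-21). Matrix proteases and inhibitors had 13 higher and 4 lower of 19 tested. MMP1, an interstitial collagenase, went from 6.11 ± 1.06 to 724 ± 148 CPM (log2 FC 6.88 ± 0.115, adjusted p = 9.97e-28), MMP3, a stromelysin, from 75.3 ± 12.4 to 3102 ± 1066 CPM (log2 FC 5.31 ± 0.0981, adjusted p = 7.55e-27), and TIMP3, an inhibitor of metalloproteinases, from 143 ± 8.8 to 0.448 ± 0.137 CPM (log2 FC -8.32 ± 0.162, adjusted p = 2.3e-26). Against the backgrounds given above, the share of partners called lower and that of proteases called higher lay above those of all genes. Collagen processing enzymes had 15 higher and 7 lower of 25, among them P4HA2, a prolyl hydroxylase, from 13.2 ± 3 to 87.6 ± 5.93 CPM (log2 FC 2.76 ± 0.0665, adjusted p = 2.75e-24) and PLOD2, a lysyl hydroxylase, from 7.41 ± 1.13 to 1.16 ± 0.273 CPM (log2 FC -2.65 ± 0.138, adjusted p = 2.99e-16).

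The adhesion complex that sits under integrins had 10 higher and 14 lower of 35 tested genes in untreated A2780cis, with FERMT2 (kindlin-2), an activator of integrins, from 795 ± 128 to 164 ± 30.8 CPM (log2 FC -2.28 ± 0.0708, adjusted p = 1.14e-21) and its relative FERMT1 from 2.28 ± 0.123 to 21.7 ± 3.39 CPM (log2 FC 3.24 ± 0.128, adjusted p = 3.83e-19). Other receptors had 4 higher and 5 lower of 11, with SDC2, a syndecan, from 171 ± 18 to 0.603 ± 0.266 CPM (log2 FC -8.15 ± 0.135, adjusted p = 8.48e-28) and DDR2, a collagen receptor kinase, from 577 ± 44.2 to 259 ± 20.6 CPM (log2 FC -1.16 ± 0.078, adjusted p = 1.4e-13). After 12 h of treatment, when 28.7% of all genes were higher and 26.2% lower in A2780 and 31% and 28.9% in A2780cis, the adhesion complex of 35 tested genes had 8 higher and 14 lower in A2780 and 6 and 18 in A2780cis. PTK2, focal adhesion kinase, fell from 159.5 ± 6.45 to 66.7 ± 2.79 CPM (log2 FC -1.26 ± 0.0785, adjusted p = 1.78e-13) in A2780 and from 175 ± 5.44 to 61.1 ± 2.17 CPM (log2 FC -1.52 ± 0.0791, adjusted p = 4.13e-15) in A2780cis, and VCL, vinculin, fell in A2780 from 924 ± 20.4 to 314 ± 9.23 CPM (log2 FC -1.56 ± 0.103, adjusted p = 5.5e-13). SDC4, a syndecan of focal adhesions, rose from 14.3 ± 0.764 to 63.9 ± 4.75 CPM (log2 FC 2.16 ± 0.0958, adjusted p = 1.7e-16) in A2780 and from 24.7 ± 1.91 to 71.2 ± 2.21 CPM (log2 FC 1.53 ± 0.0918, adjusted p = 7.93e-14) in A2780cis.

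Of the 25 tested genes of collagen processing, 12 h of treatment left 5 higher and 9 lower in A2780 and 6 and 6 in A2780cis, with ADAMTS3, a procollagen peptidase, down from 59.6 ± 6.66 to 30 ± 2.29 CPM (log2 FC -0.99 ± 0.116, adjusted p = 3.57e-08) in A2780 and from 26.9 ± 1.93 to 9.33 ± 2.07 CPM (log2 FC -1.53 ± 0.126, adjusted p = 4.03e-11) in A2780cis. The 19 tested matrix partners had 3 higher and 6 lower in A2780 and 3 and 0 in A2780cis, with SPARC, a collagen-binding protein, up from 79.4 ± 6.35 to 132 ± 4.8 CPM (log2 FC 0.73 ± 0.097, adjusted p = 3.36e-07) and from 32.9 ± 1.9 to 58.3 ± 3.79 CPM (log2 FC 0.82 ± 0.1, adjusted p = 6.07e-08). The 19 tested proteases and inhibitors had 4 higher and 8 lower in A2780 and 5 and 6 in A2780cis, and the 11 other receptors 4 and 4 in each line, with the collagen receptor kinase DDR1 up in A2780 from 12.4 ± 1.18 to 49 ± 6.44 CPM (log2 FC 1.98 ± 0.158, adjusted p = 2.49e-11).

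Markers of other cell types moved with the line. The 7 fibroblast markers summed to 817 to 1355 CPM in the untreated A2780 libraries and to 75.5 to 93.7 CPM in those of A2780cis, of which POSTN, a matrix protein, gave a mean of 883 and 5.61 CPM and PDGFRA 171 and 3.06, while THY1 was similar at 66.1 and 72.4 and FAP was at or near 0. Of the 11 carcinoma and epithelial markers, whose sum was 2.36 to 4.73 CPM in untreated A2780 and 25.5 to 33.2 CPM in untreated A2780cis, KRT18 gave most in A2780cis (24.8 CPM). EPCAM was lower there, at a mean of 0.257 CPM against 0.81 in untreated A2780. The 4 mesenchymal markers summed to 2119.8 to 2650.1 CPM in untreated A2780 and 2311 to 2862 in untreated A2780cis, and to 868 to 987 and 809 to 905 CPM after 12 h of treatment. Nearly all of this sum was vimentin, and CDH2, N-cadherin, had a mean of 48 CPM in untreated A2780 and 5.12 in untreated A2780cis. These are established lines, and the part of such marker differences in the results was not tested.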

How the data were processed

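Total RNA of the 24 samples was prepared with a stranded kit for ribosome-depleted RNA. The authors trimmed the reads with Trimmomatic, aligned them to GRCh38.p7 with STAR 2.5.2b in 2 passes and counted them per gene with featureCounts, sharing reads with several alignments or features by fractions. The deposited values are therefore estimated counts, of which 9.5% to 12.8% of the entries per library were not whole, and they were rounded before testing. The strand setting is not given in the sources used here.

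Symbols, gene types and exon lengths came from GENCODE 44, which matched 56948 of 63299 identifiers. Genes were filtered with filterByExpr (minimum count 10), scaled by TMM and fitted with 1 coefficient per group over all 24 libraries (16 residual degrees of freedom) in edgeR 4.0.16 under R 4.3.3, using the robust quasi-likelihood test with Benjamini-Hochberg adjustment over 20240 genes and a threshold of 0.05. The SE was obtained from each F statistic, as the size of the log2 FC over its root. Levels are CPM on TMM-scaled libraries. A group at 0 counts was set to a floor of 3 counts over the group, and a group of 1 to 3 counts was given as a ratio with an exact 95% interval, both of which cover counting error only. No fold was given where both groups held at most 3 counts.

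The members, lists and comparisons were chosen with earlier results of these data known. The values given are those of the largest called changes (10 in each direction between lines, 8 at 12 h and 4 elsewhere), of the 3 best expressed members of each family, of each tested laminin and beta subunit and of chains that share a trimer or pair with them. From each list, genes among the 3 with the smallest p were named. Each result was recomputed with DESeq2's size factors, with library size alone, with unfiltered or unrounded counts, with the replicate number as a block, on the compared libraries alone, by the DESeq2 1.42.0 Wald test and without each library in turn. On simulated counts with 200 genes changed 2-fold, modelled on treatment in A2780cis at 12 h and 19185 genes, 195 were called, with 14 calls among 18985 unchanged genes. The changed genes were drawn from the better expressed genes alone, and far fewer changed than were called in the data. The simulation therefore does not bear on members with few reads or on the scaling when many genes change. No libraries of a group agreed within counting noise (chi-square per degree of freedom 2.23 to 25.8).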

Additional observations from a re-analysis of the deposited data

Results flagged for a closer look

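For 13 members the response to 12 h of treatment differed between the lines, by the test of the difference itself (treatment log2 FC in A2780cis minus that in A2780, ± SE, edgeR quasi-likelihood test adjusted over 20240 genes). On the higher side in A2780cis, the difference was 3.64 ± 0.467 for ITGA2 (adjusted p = 2.77e-06), 2.55 ± 0.84 for COL6A6 (adjusted p = 0.0276), 1.23 ± 0.351 for ITGB7 (adjusted p = 0.012) and 0.84 ± 0.252 for ITGA7 (adjusted p = 0.0162). Smaller differences in this direction were 0.65 ± 0.145 for ITGB1 (adjusted p = 0.00175), 0.59 ± 0.119 for COL5A2 (adjusted p = 0.000747) and 0.59 ± 0.175 for ITGA5 (adjusted p = 0.0161). On the lower side it was -2.00 ± 0.364 for LAMC3 (adjusted p = 0.000406), -1.97 ± 0.405 for COL5A1 (adjusted p = 0.000875), -1.43 ± 0.248 for ITGA3 (adjusted p = 0.000148) and -1.37 ± 0.339 for COL18A1 (adjusted p = 0.00541), followed by -1.19 ± 0.159 for ITGA6 (adjusted p = 4.85e-06) and -0.96 ± 0.225 for COL27A1 (adjusted p = 0.0027). COL6A6 and ITGA7 lost their call in some of the fits that left out 1 library, and part of the exons of ITGB7 and COL18A1 lie opposite another gene.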

How the results depend on the processing

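Of 2199 values recomputed under the alternatives, 2036 kept their direction and their side of the threshold, 115 lost their call or fell in number, 19 gained a call or rose in number and 29 changed direction. With library size alone, the members lower with treatment numbered 2 at 6 h in A2780, and those lower over control time 1 in A2780 and 1 in A2780cis. The 12 h log2 FC in A2780 then became 0.075 for COL1A2, 0.076 for ITGA6, 0.0038 for ITGB1 and 0.16 for LAMB1, and that of LAMA1 in A2780cis 0.0012. Without the filter on low counts, 1 member was lower over control time in A2780 and 1 (COL18A1) for the interaction at 6 h, ITGA5 stood at -0.0058 at 12 h in A2780 and COL6A1 at -0.028 in A2780cis. The DESeq2 test called 1 member (COL3A1) lower for the interaction at 6 h. None of these reversed values was called under the alternative, and the cause was not tested. Leaving out 1 library gave 8 to 14 members higher and 2 to 4 lower at 6 h in A2780, 10 to 19 higher at 12 h in A2780 (10 without the second treated library), 0 to 1 lower for the interaction at 6 h, and 10 to 18 higher and 0 to 2 lower over control time in A2780. Uncalled values that crossed 0 in these fits ranged from -0.16 to 0.078 for COL6A2 and from -0.018 to 0.35 for LAMA5 between the untreated lines, from -0.042 to 0.10 for ITGA5 and from -0.19 to 0.14 for LAMB1 at 12 h in A2780, and, at 12 h in A2780cis, from -0.28 to 0.20 for COL6A1, -1.28 to 0.039 for COL6A3, -0.28 to 0.61 for COL9A2 and -1.27 to 0.57 for LAMA1. With the replicate number as a block (replicate block), all 149 values kept their direction and call and no count moved by more than 1 (members lower at 12 h in A2780cis numbered 12 against 11). Libraries of the same number correlated between -0.25 and 0.31 in their deviations from the group means. With 3 libraries per group this cannot tell whether the numbers pair them. Depth limits the members with few reads, such as COL20A1, ITGAM and COL6A6.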
